A study of Homo sapiens with 12 samples.

Results

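The aryl hydrocarbon receptor (AHR), the genes it acts with and the enzymes that handle aristolochic acid I (AAI) were followed in HK-2, an immortalised line of human proximal tubule origin. The 9 genes, of 35238 in the deposited table, were chosen by name for their known roles, with earlier results of these data known: AHR, its partner ARNT, its targets AHRR, TIPARP, CYP1A1 and CYP1B1, and the enzymes NQO1, POR and SULT1A1. Every group carried 10 nM of a transfected short interfering RNA, either a scrambled control (SCR) or the authors' RNA-B (siB). The latter is directed at POLR2A, the gene of the largest RNA polymerase II subunit. It was the only RNA against POLR2A in these libraries, so other effects of its sequence cannot be told apart from lower POLR2A. At the time of transfection, cells received 25 µM AAI, a plant nephrotoxin, or an equal volume of its solvent DMSO, and were kept for 24 hours. This gave 4 groups of 3 libraries (SCR DMSO, SCR AAI, siB DMSO and siB AAI), 12 in all. Groups came from the sample titles, because a label field for the treatment named DMSO in all 12 samples. The labels do not say whether the 3 libraries of a group came from separate cultures, so p-values measure the spread between these libraries, which may be technical.

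AHR is a ligand-activated transcription factor that waits in the cytoplasm with HSP90 chaperones, moves to the nucleus when bound, pairs with ARNT and binds the xenobiotic response element (XRE), whose core is GCGTG. CYP1A1 and CYP1B1 are cytochrome P450 enzymes under its control, while AHRR competes with AHR for ARNT and TIPARP marks AHR for breakdown, so both act as negative feedback. AAI itself becomes harmful by reduction of its nitro group, for which the cytosolic reductase NQO1 is the best known enzyme. CYP1A1 and CYP1A2 can oxidise or reduce AAI with electrons from POR, and SULT1A1 can add sulfate to the reduced product, after which it binds DNA.

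Matches to the response elements upstream of these genes were read from hg38. They are shown because AHR with ARNT binds elements of this form, and binding was not measured here. The 1500 bases before the start of each gene's canonical transcript were searched on both strands for the XRE core GCGTG and for a longer form, TNGCGTG, which is counted within the cores. CYP1A1 had 10 cores, a number that 0.604% of 20033 protein-coding genes reached, and 5 longer forms (0.01997% of genes). CYP1B1 had 7 cores (3.79%) and 4 longer forms (0.0599%). AHRR had 4 cores (23.3%) and 1 longer form (26.5%), and ARNT 5 (13.5%) and 2 (4.54%). Without the longer form, TIPARP had 6 cores (7.38%), POR 7 (3.79%, the same as CYP1B1), NQO1 2 (57.5%) and SULT1A1 1 (80.2%). The median over all genes was 2 cores. No core was found before the start of AHR. For CYP1A1 and CYP1B1 the 300 bases with the most longer forms are given, for AHRR the 250 bases directly before its start, a stretch length at which 32.2% of 35116 RefSeq promoters (GRCh38.p14) held a core and 4.52% a longer form. Capitals mark cores on either strand.
CYP1A1, chr15:74726344-74726643, minus strand, from 1115 to 816 bases before the start: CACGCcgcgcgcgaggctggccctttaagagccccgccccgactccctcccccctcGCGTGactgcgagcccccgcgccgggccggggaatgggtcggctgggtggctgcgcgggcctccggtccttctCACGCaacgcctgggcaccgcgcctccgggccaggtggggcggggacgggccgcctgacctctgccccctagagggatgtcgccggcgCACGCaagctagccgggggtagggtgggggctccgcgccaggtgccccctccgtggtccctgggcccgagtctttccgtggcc
CYP1B1, chr2:38076879-38077178, minus strand, from 1027 to 728 bases before the start: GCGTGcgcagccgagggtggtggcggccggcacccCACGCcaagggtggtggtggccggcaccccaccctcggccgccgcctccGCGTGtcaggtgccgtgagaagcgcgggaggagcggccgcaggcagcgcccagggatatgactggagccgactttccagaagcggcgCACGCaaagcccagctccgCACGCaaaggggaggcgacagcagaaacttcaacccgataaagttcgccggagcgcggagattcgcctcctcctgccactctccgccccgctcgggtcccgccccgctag
AHRR, chr5:321464-321713, plus strand: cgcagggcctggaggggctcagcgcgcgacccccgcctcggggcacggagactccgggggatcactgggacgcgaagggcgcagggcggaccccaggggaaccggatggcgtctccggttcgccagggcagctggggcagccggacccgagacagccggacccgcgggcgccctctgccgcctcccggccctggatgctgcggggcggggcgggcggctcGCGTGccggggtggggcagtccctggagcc
The CYP1A1 stretch held 4 cores and the CYP1B1 stretch 5, with 3 longer forms in each, and the AHRR stretch held 1 core, which was also a longer form. NQO1 is known for another element, the antioxidant response element that NRF2 binds. The search for TGACNNNGC found 1 match in its 1500 bases (43.2% of genes had at least 1), shown in capitals with 20 bases on each side.
NQO1, chr16:69726987-69727035, minus strand, first capital 455 bases before the start: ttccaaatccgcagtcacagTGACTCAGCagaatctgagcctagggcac
A match of letters is a description and does not show binding.

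Libraries held 15844015 to 42805294 reads counted to genes. Levels are counts-per-million (CPM), and a change is a difference in mean log2(CPM + 1), tested with limma over all genes with at least 1 CPM in at least 3 fitted libraries. A gene was called at an adjusted p under 0.05 and at least 2-fold. In the check of the knockdown, POLR2A was at 258 to 306 CPM in SCR DMSO and 138 to 143 CPM in siB DMSO, and at 673 to 729 CPM in SCR AAI and 210 to 266 CPM in siB AAI, so siB libraries were lower at both treatments without overlap. SCR DMSO replicate 2 was the deepest library and had the lowest AHR and CYP1B1 of all 12. Of 14 proximal tubule markers, 7 to 9 were at a mean of 1 CPM or more in a group, and LRP2, SLC5A12 and AQP1 were under 1 CPM in all 4 groups. All 6 epithelial markers were present, and their summed level ranged from 1140.7 to 2103 CPM per library. Of 7 markers of other cell types, 2 to 5 reached 1 CPM, with sums of 17.6 to 53.1 CPM per library, and CDH5 and UMOD were under 1 CPM throughout, with at most 1 of the 7 at 0 in every library of a group. Some markers moved with AAI: in siB cells 2 of 9 tested proximal tubule markers were called raised and 2 lowered, 1 of 6 epithelial markers was lowered, and of 3 other markers tested PTPRC (to 2.70 CPM) and PECAM1 (to 4.65 CPM) were raised and COL1A1 lowered, where 13.9% of all genes tested were called raised and 5.79% lowered. PTPRC and the tubule marker ANPEP were under 1 CPM in all siB DMSO libraries, so they were tested through the AAI libraries where they are high. In SCR cells 1 of 8 tested proximal tubule markers was called raised, where 7.73% of all genes tested were. The part of the markers in the results was not tested. In these bulk samples, fewer cells of a kind and less RNA per cell cannot be told apart.

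Per kilobase of canonical transcript (1.57 to 6.24 kb), the enzymes of AAI reduction stood highest. In SCR DMSO the level of NQO1 was 53.9 ± 21.1 CPM per kb (SD, n = 3) and that of POR 32.6 ± 9.43, and their libraries overlapped. SULT1A1 (16.9), TIPARP (15.5), ARNT (8.55), AHR (6.54) and CYP1B1 (3.58) followed, each overlapping its neighbour in this order. AHRR, at 0.187 CPM per kb, and CYP1A1, at 0.0372, lay apart below. In both AAI groups POR was first, at 59.7 ± 13.8 CPM per kb in SCR cells, where it overlapped NQO1, and at 75.6 ± 10.6 in siB cells, where it did not. AHRR stood in the eighth place in the DMSO groups and SCR AAI and in the fifth in siB AAI, at 7.25 ± 0.389 CPM per kb, where its libraries overlapped those of TIPARP above and AHR below. ARNT went the other way, from the fifth place in both DMSO groups to the eighth in siB AAI, at 4.56 ± 0.350 CPM per kb.

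**Figure D1:**
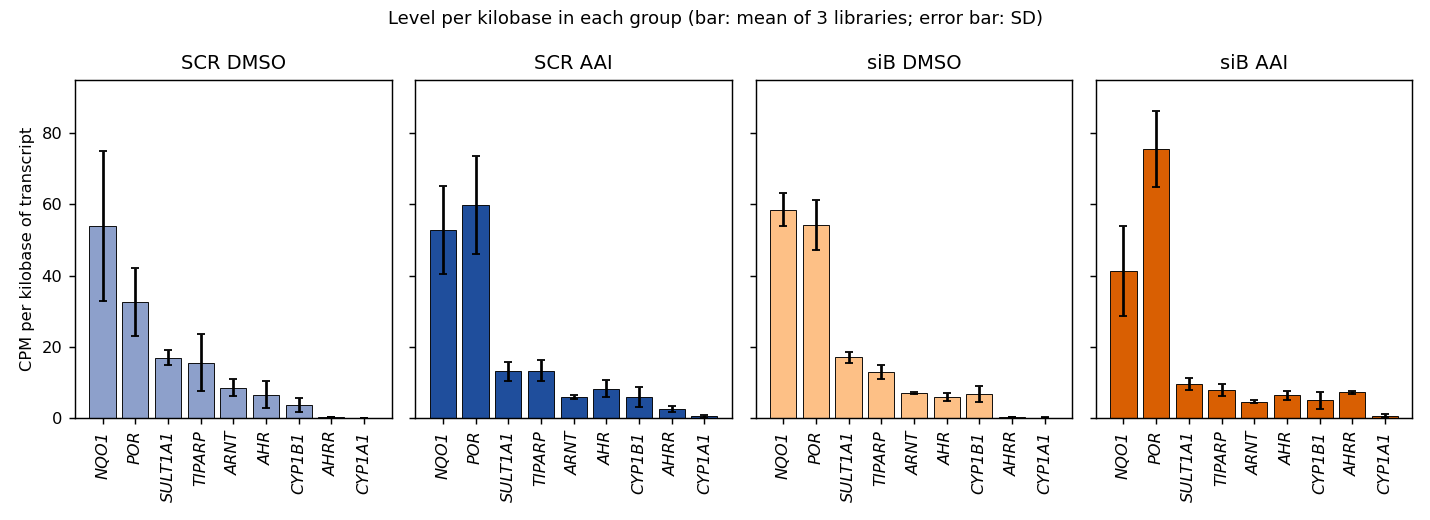
Mean level per kilobase of canonical transcript of the 9 genes in each group (bars; error bars are SD, n = 3 libraries), in CPM per kb. NQO1 and POR are the tallest bars in every group, and AHRR is near 0 in both DMSO groups but at 7.25 CPM per kb in siB AAI.

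AHRR was the gene of the axis with a called change under AAI, in both SCR and siB cells. AHRR (chromosome 5, 321714 to 438291, plus strand) encodes the AHR repressor. In SCR DMSO it was at 1.11, 1.19 and 0.883 CPM (24, 51 and 24 reads), and in SCR AAI at 9.88, 15.1 and 19.03 CPM (179, 334 and 486 reads). In siB DMSO it was at 1.92, 1.08 and 1.90 CPM, and in siB AAI at 39.6, 39.9 and 43.6 CPM. Each AAI library lay above each DMSO library, and each siB AAI library above each SCR AAI library. Of all genes tested, 22.2% were higher with AAI without overlap in SCR cells and 34.2% in siB cells. In siB AAI against SCR AAI the share was 15.1%. The ratio of mean CPM of AHRR, AAI to DMSO, was 13.8 in SCR cells and 25.1 in siB cells. On the log2(CPM + 1) scale, which understates the change of a gene this low in DMSO, the rise of AHRR in SCR cells was 2.89 (SE 0.28, adjusted p = 5.66e-04). In siB cells it was 4.01 (SE 0.18, adjusted p = 6.85e-07). With a pseudocount of 0.1 the changes were 3.63 and 4.61. AHRR was 1 of 8 tested genes of the axis called in SCR cells, where 7.73% of all 14228 genes tested were called raised and 2.73% lowered, and 1 of 8 in siB cells, where 13.9% of 14928 were called raised and 5.79% lowered. The filter of 1 CPM in 3 libraries was met by the DMSO libraries alone in siB cells but needed an AAI library in SCR cells. Its call held in all 13 alternatives of each comparison, with log2 changes of 2.69 to 3.74 in SCR cells and 3.85 to 4.68 in siB cells.

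**Figure D2:**
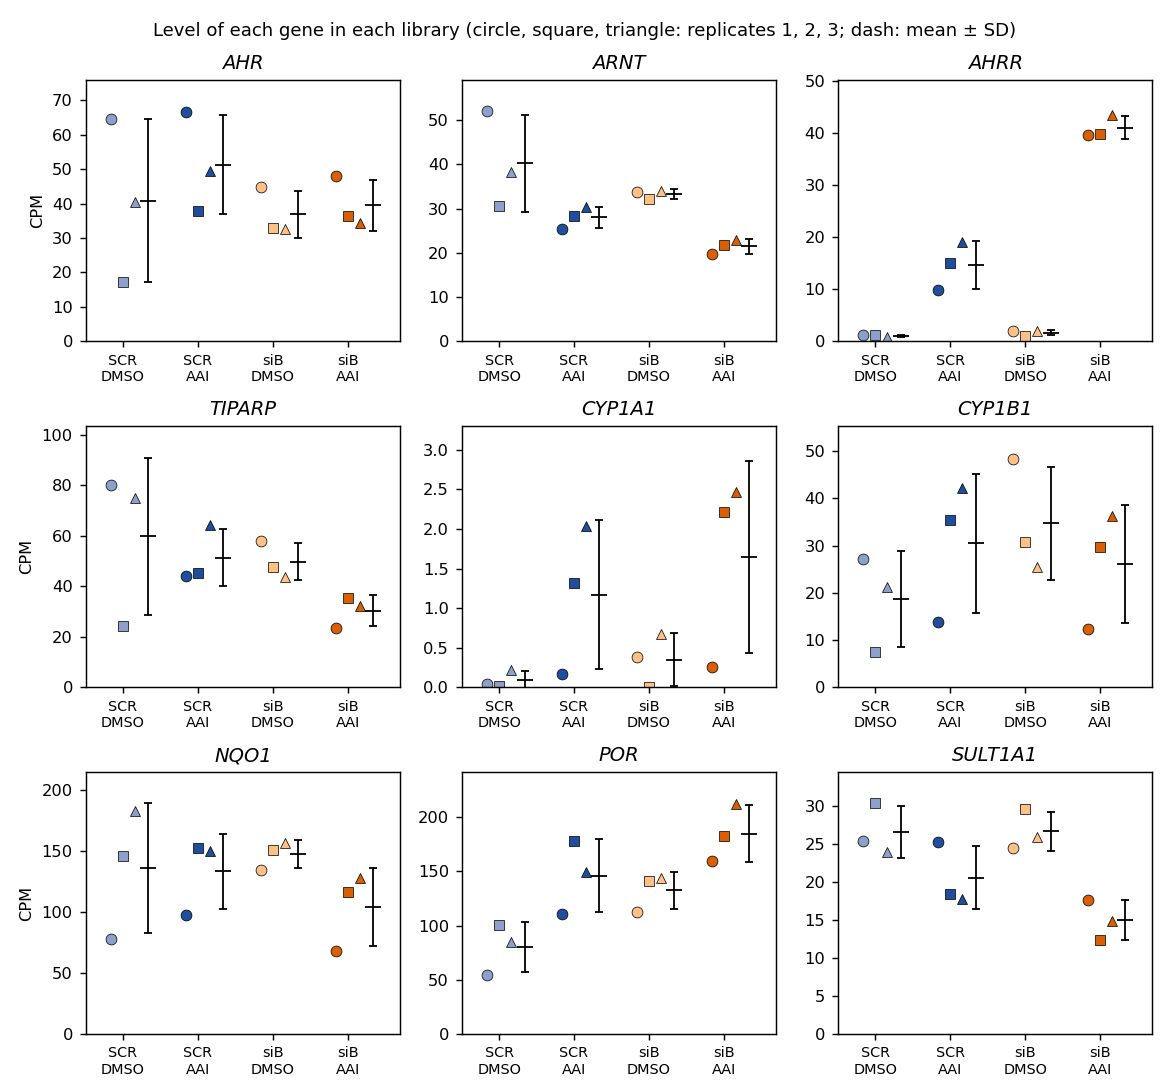
CPM of each of the 9 genes in each of the 12 libraries (circle, square and triangle are replicates 1, 2 and 3; dashes and bars are mean ± SD, n = 3, with the lower bar of CYP1A1 cut at 0 in some groups). AHRR is the gene whose AAI libraries, from 9.88 to 43.6 CPM, are all well above its DMSO libraries, from 0.883 to 1.92 CPM.

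AHRR lies 6740 bases past the end of PDCD6 on the same strand, and the annotation holds a read-through gene, PDCD6-AHRR, across both, so the levels of PDCD6 are given beside it (PDCD6 was chosen after its values were seen). PDCD6, a calcium-binding protein gene, averaged 68.5 ± 4.52 CPM in SCR DMSO, 55.3 ± 3.71 in SCR AAI, 70.7 ± 0.456 in siB DMSO and 64.1 ± 4.99 in siB AAI (SD, n = 3). Its changes with AAI were -0.30 (adjusted p = 0.364) in SCR cells and -0.14 (adjusted p = 0.285) in siB cells, neither called, while AHRR rose. Reads of the read-through gene could be counted to AHRR, and their share was not tested.

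**Figure D3:**
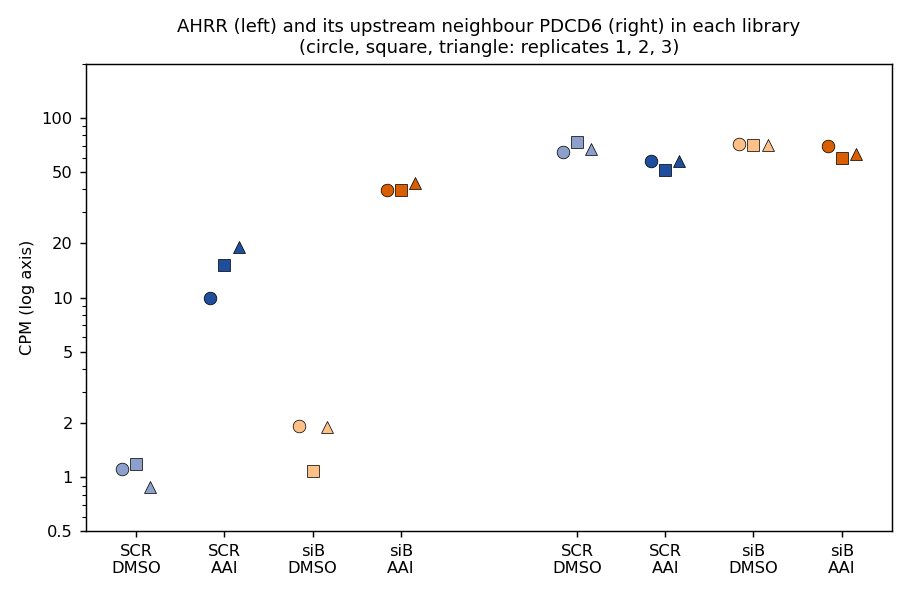
CPM on a log axis of AHRR (left) and its upstream neighbour PDCD6 (right) in each library of the 4 groups, with circle, square and triangle for replicates 1, 2 and 3. AHRR spans 0.883 to 43.6 CPM while PDCD6 stays between 51.0 and 73.5 CPM.

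The receptor itself showed no called change. AHR (chromosome 7, 16916359 to 17346152, plus strand) was at 64.7, 17.3 and 40.4 CPM in SCR DMSO and 66.6, 37.9 and 49.6 CPM in SCR AAI. The siB DMSO libraries were at 44.8, 33.1 and 32.7 CPM and those of siB AAI at 48.0, 36.3 and 34.3 CPM. Its groups overlapped in both backgrounds, and replicate 1 was the highest library of every group. The AAI change of AHR was 0.47 (SE 0.46, adjusted p = 0.551; 95% interval -0.59 to 1.53) in SCR cells and 0.10 (SE 0.17, adjusted p = 0.653; interval -0.29 to 0.49) in siB cells. Replicate numbers paired the SCR libraries, and AHR was higher with AAI in 3 of 3 pairs, in replicate 1 only from 64.7 to 66.6 CPM. The share of all genes higher in 3 of 3 pairs was not counted, and their median change there was 0.18. A replicate block brought the SE of AHR in SCR cells to 0.249 (adjusted p = 0.208), still not past the threshold. The value in siB cells changed sign under median-ratio scaling (-0.01). The annotated span of AHR overlaps 6 other genes, some on the same and some on the opposite strand. Whether reads of these were counted to AHR is not known.

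ARNT, the partner that AHR needs to bind DNA, was lower in AAI. ARNT (chromosome 1, 150809713 to 150876708, minus strand) was at 52.1, 30.5 and 38.2 CPM in SCR DMSO and 25.5, 28.3 and 30.3 CPM in SCR AAI. Levels in siB DMSO were 33.6, 32.1 and 34.1 CPM and in siB AAI 19.7, 21.8 and 22.9 CPM. Its AAI libraries lay below its DMSO libraries without overlap in both backgrounds, as did those of 11.5% of all genes tested in SCR cells and 26.6% in siB cells. The difference was -0.48 (SE 0.26, adjusted p = 0.288) in SCR cells, not past the threshold, and -0.61 (SE 0.13, adjusted p = 0.00299) in siB cells, past the adjusted p but under 2-fold. In siB cells 21.8% of genes tested were lower and 30.4% higher by the adjusted p alone. By that measure 3 of the 8 axis genes tested were lower in siB cells (ARNT, TIPARP and SULT1A1) and 2 were higher (AHRR and POR).

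TIPARP, the feedback gene that tags AHR with ADP-ribose, did not follow AHRR. TIPARP (chromosome 3, 156673235 to 156706770, plus strand) was at 80.1, 24.1 and 75.0 CPM in SCR DMSO and 44.2, 45.4 and 64.3 CPM in SCR AAI, and these groups overlapped. Among siB cells it was at 57.8, 47.6 and 43.7 CPM in DMSO and at 23.5, 35.5 and 32.2 CPM in AAI. These were lower without overlap, as were 26.6% of genes tested. The change was -0.06 (SE 0.45, adjusted p = 0.949) in SCR cells, where voom gave 0.0057, and -0.70 (SE 0.17, adjusted p = 0.00787) in siB cells, under 2-fold. The latter had an adjusted p of 0.175 when all 4 groups shared a fit, and of 0.00277 to 0.0225 in the other 12 alternatives. TIPARP overlaps TIPARP-AS1 on the opposite strand, and whether counting used strand is not given in the sources used here, so reads of both cannot be told apart.

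CYP1A1, the classical AHR target, had few reads in every group and the most in replicates 2 and 3 of both AAI groups. CYP1A1 (chromosome 15, 74719542 to 74725536, minus strand) had 1, 1 and 6 reads in SCR DMSO (0.0462, 0.0234 and 0.221 CPM) and 3, 29 and 52 reads in SCR AAI (0.166, 1.31 and 2.04 CPM). It had 9, 0 and 12 reads in siB DMSO (0.385, 0 and 0.669 CPM) and 4, 48 and 46 reads in siB AAI (0.252, 2.22 and 2.47 CPM). The count of 0 allows a level of up to 0.135 CPM in that library. Replicates 2 and 3 of both AAI groups were above all 6 DMSO libraries, but replicate 1 of each was within them. The ratio of mean CPM of CYP1A1, AAI to DMSO, was 12.1 in SCR cells (from 0.0967 to 1.17 CPM) and 4.68 in siB cells (from 0.351 to 1.64 CPM). CYP1A1 did not pass the filter for either AAI comparison. In the fits that held it, those without a filter or with all 4 groups, its change in log2(CPM + 1), a scale that understates changes at this level, was 0.88 (adjusted p = 0.177 and 0.128, in that order) in SCR cells and 0.86 (adjusted p = 0.118 and 0.121) in siB cells.

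CYP1B1, the AHR target that oxidises steroids and polycyclic hydrocarbons, was detected at a higher level but with wide spread. CYP1B1 (chromosome 2, 38066973 to 38109902, minus strand) was at 27.3, 7.48 and 21.4 CPM in SCR DMSO and 13.9, 35.4 and 42.2 CPM in SCR AAI. In siB DMSO it was at 48.3, 30.7 and 25.4 CPM and in siB AAI at 12.3, 29.8 and 36.3 CPM. The groups overlapped in both backgrounds, and replicate 1 was the highest library in both DMSO groups and the lowest in both AAI groups. The change was 0.71 (SE 0.55, adjusted p = 0.450) in SCR cells and -0.48 (SE 0.36, adjusted p = 0.291) in siB cells. CYP1B1 shares positions with CYP1B1-AS1 and RMDN2 on the opposite strand, so its counts carry the same limit as those of TIPARP.

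**Figure D4:**
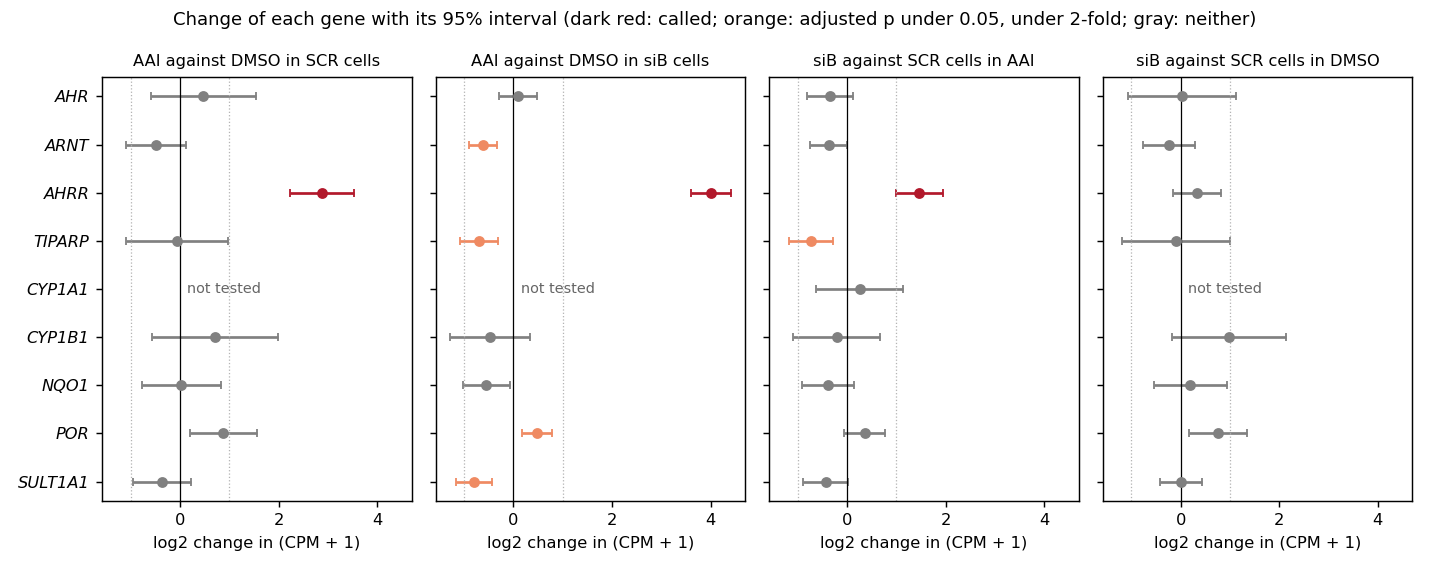
Log2 change in (CPM + 1) of each gene with its 95% interval in 4 comparisons; dotted lines mark 2-fold, dark red points are called, orange points pass the adjusted p but are under 2-fold, and gray points pass neither. AHRR is the dark red point in the first 3 comparisons, at 2.89, 4.01 and 1.47, and no gene is called in DMSO.

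Of the enzymes of AAI reduction, neither NQO1 nor POR was called with AAI in either background. NQO1 (chromosome 16, 69706996 to 69726668, minus strand) was at 78.2, 146 and 183 CPM in SCR DMSO and 97.5, 152 and 149.98 CPM in SCR AAI, a difference of 0.03 (SE 0.35, adjusted p = 0.970; -0.17 under median-ratio scaling). The siB DMSO libraries were at 135, 151 and 157 CPM and those of siB AAI at 67.8, 117 and 128 CPM, lower without overlap, as were 26.6% of genes tested. That difference was -0.55 (SE 0.21, adjusted p = 0.0512), with adjusted p-values from 0.00719 to 0.206 over 13 alternatives. Replicate 1 was the lowest library of NQO1 in all 4 groups.

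POR (chromosome 7, 75899200 to 75986855, plus strand) hands electrons to all microsomal P450 enzymes. It was at 54.6, 100.01 and 84.5 CPM in SCR DMSO and 111, 178 and 149 CPM in SCR AAI. In siB DMSO it was at 113, 141 and 144 CPM and in siB AAI at 160, 183 and 212 CPM. AAI libraries were above DMSO libraries without overlap in both backgrounds, as for 22.2% of genes tested in SCR cells and 34.2% in siB cells. The change was 0.88 (SE 0.29, adjusted p = 0.0941) in SCR cells. It was 0.48 (SE 0.14, adjusted p = 0.0162), under 2-fold, in siB cells. In SCR cells, where replicate numbers paired the libraries, a replicate block gave POR an adjusted p of 0.0132, still under 2-fold. Without SCR DMSO replicate 2 POR was called, at 1.07 (adjusted p = 0.0141). Over 13 alternatives in SCR cells its adjusted p ranged from 0.0132 to 0.282. In siB cells the adjusted p of POR was 0.0722 without siB AAI replicate 3, 0.0799 under median-ratio scaling and 0.143 with all 4 groups in the fit.

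SULT1A1, the sulfotransferase of phenols, was lower in siB AAI. SULT1A1 (chromosome 16, 28605196 to 28614279, minus strand) was at 25.4, 30.4 and 23.9 CPM in SCR DMSO and 25.3, 18.5 and 17.8 CPM in SCR AAI, which overlapped through replicate 1. Levels in siB DMSO were 24.5, 29.6 and 25.9 CPM and in siB AAI 17.6, 12.3 and 14.9 CPM, lower without overlap, as were 26.6% of genes tested. The difference was -0.37 (SE 0.25, adjusted p = 0.396) in SCR cells and -0.80 (SE 0.16, adjusted p = 0.00272) in siB cells, under 2-fold. The adjusted p in siB cells was at most 0.0142 over 13 alternatives. SULT1A1 has near-identical relatives, so reads may have been split among them.

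Median-ratio scaling lowered the median change of all genes by 0.19 in SCR cells (from 0.18) and by 0.11 in siB cells (from 0.10), and moved the share of calls that were raised from 73.9% to 56.7% and from 70.7% to 63.0%. Relative to the unscaled medians, AHRR, POR and AHR were above in both backgrounds, AHR in siB cells only at 0.0985 against 0.0955. ARNT, TIPARP, NQO1 and SULT1A1 were below in both, and CYP1B1 was above in SCR cells and below in siB cells. The median change of the 8 axis genes tested was 0.25 in SCR cells and -0.51 in siB cells.

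The genes around the axis were described by lists chosen from their known roles, and the counts below stand beside the shares of all genes called, 7.73% raised and 2.73% lowered in SCR cells and 13.9% raised and 5.79% lowered in siB cells. Of 13 AHR partners and chaperones, none was called in SCR cells (limma; 1 at an unadjusted p under 0.05, and 0 called by voom) and 1 was called in siB cells. That gene was EPAS1, the hypoxia factor that also pairs with ARNT, which fell from 1441 ± 28.6 to 468 ± 45.6 CPM (SD, n = 3; log2 change -1.62, SE 0.10, adjusted p = 3.61e-06). In SCR cells EPAS1 went from 955 ± 365 to 465 ± 121 CPM (-1.004, SE 0.32, adjusted p = 0.0849), not past the threshold. Its AAI libraries there lay below its DMSO libraries without overlap, as did those of 11.5% of genes tested. The interaction term of EPAS1 was -0.62 (adjusted p = 0.503), not past the threshold. The median change of the list was 0.05 in SCR cells and -0.17 in siB cells.

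Of 15 other AHR target genes, 9 were tested and none was called in SCR cells (limma; 3 at an unadjusted p under 0.05, and 0 called by voom), while 2 were called raised in siB cells. EREG, the growth factor epiregulin, went from 26.1 ± 19.4 to 128.8 ± 72.6 CPM in SCR cells (log2 change 2.29, SE 0.63, adjusted p = 0.0539), not past the threshold. It rose from 48.2 ± 9.11 to 115.9 ± 53.9 CPM in siB cells (log2 change 1.13, SE 0.34, adjusted p = 0.0188), although its libraries overlapped. Its call was lost without siB DMSO replicate 3, siB AAI replicate 2 or siB AAI replicate 3 and with all 4 groups in the fit (adjusted p up to 0.161). UGT1A1, which adds glucuronic acid to bilirubin, rose from 0.620 ± 0.339 to 3.25 ± 0.868 CPM in siB cells (log2 change 1.39, SE 0.22, adjusted p = 7.16e-04), and was tested through the AAI libraries, since all siB DMSO libraries were under 1 CPM. In SCR cells the change of UGT1A1 was 0.62 (SE 0.19, adjusted p = 0.0824), not past the threshold. The list's median was 0.56 in SCR cells and 0.23 in siB cells. CYP1A2, the relative of CYP1A1 in this list, went from a mean of 1.045 to 2.02 CPM with AAI in SCR cells (log2 change 0.56, SE 0.19, adjusted p = 0.104). In siB cells the means were 1.070 and 1.54 CPM (0.30, SE 0.17, adjusted p = 0.161). Its AAI libraries lay above its DMSO libraries without overlap in both backgrounds, but neither change passed the threshold. The same held for 22.2% of genes tested in SCR cells and 34.2% in siB cells.

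Of 15 other nitroreductase and oxidising enzymes, 11 were tested in SCR cells with none called (limma; 3 at an unadjusted p under 0.05, and 0 called by voom) and 12 in siB cells with 1 called raised. CYP3A5, a drug-metabolising P450, rose from 2.60 ± 1.12 to 11.99 ± 2.55 CPM in siB cells (log2 change 1.88, SE 0.25, adjusted p = 2.30e-04). In SCR cells CYP3A5 went from 3.11 ± 1.20 to 5.73 ± 1.07 CPM (0.75, SE 0.30, adjusted p = 0.152), not past the threshold. The median of the list was 0.12 in SCR cells and -0.10 in siB cells.

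Of 12 other sulfotransferases, acetyltransferases and sulfate donor enzymes, 9 were tested, with 1 called raised in SCR cells and 3 raised and 1 lowered in siB cells. SULT1A3, a sulfotransferase of dopamine, rose from 4.76 ± 1.23 to 33.4 ± 9.82 CPM in SCR cells (log2 change 2.56, SE 0.31, adjusted p = 0.00151) and from 7.51 ± 1.13 to 25.7 ± 4.14 CPM in siB cells (1.64, SE 0.18, adjusted p = 7.17e-05). SULT1A4, its near-identical copy, fell from 7.36 ± 2.32 to 2.94 ± 0.576 CPM in siB cells (log2 change -1.06, SE 0.22, adjusted p = 0.00344), and was under 2-fold without siB DMSO replicate 3 or siB AAI replicate 3. Reads of these copies could be assigned to either, so both values are uncertain. SULT1B1, a sulfotransferase of thyroid hormones, rose from 2.59 ± 0.829 to 10.4 ± 3.08 CPM in siB cells (1.66, SE 0.25, adjusted p = 5.83e-04). SULT2B1, a sulfotransferase of cholesterol, rose from 0.384 ± 0.0759 to 1.90 ± 0.835 CPM in siB cells (1.03, SE 0.23, adjusted p = 0.00455), and was tested through the AAI libraries, since no siB DMSO library reached 1 CPM. In SCR cells the change of SULT2B1 was 0.79 (SE 0.17, adjusted p = 0.0229), under 2-fold, and no DMSO library reached 1 CPM there either. The list's median was -0.11 in SCR cells and 0.07 in siB cells.

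Of 10 organic anion and efflux transporters, 5 were tested in SCR cells with 2 called raised and 6 in siB cells with 1 called raised. This class includes carriers of AAI and its conjugates across the tubule cell. Its uptake carriers SLC22A6, SLC22A7, SLC22A8 and SLC22A11 were under 1 CPM in every library and were not tested. The uptake carrier SLCO4C1 was tested and not called. ABCC2, the apical conjugate pump MRP2, rose from 1.050 ± 0.390 to 5.04 ± 0.583 CPM in SCR cells (log2 change 1.57, SE 0.23, adjusted p = 0.00350) and from 1.24 ± 0.294 to 20.2 ± 1.60 CPM in siB cells (3.24, SE 0.17, adjusted p = 1.55e-06). ABCC3, the basolateral pump MRP3, rose from 40.0 ± 5.41 to 94.1 ± 9.93 CPM in SCR cells (1.22, SE 0.21, adjusted p = 0.00884), a call lost without SCR AAI replicate 3 (adjusted p = 0.0591). In siB cells ABCC3 went from 49.0 ± 2.61 to 79.9 ± 4.81 CPM (0.69, SE 0.11, adjusted p = 6.56e-04), under 2-fold. In SCR cells ABCC2 met the filter through its AAI libraries, with 2 of 3 DMSO libraries at 1 CPM or more. The list's median was -0.20 in SCR cells and 0.21 in siB cells.

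Of 12 NRF2 targets, the group that shares a response element type with NQO1, all were tested. OSGIN1, an oxidative stress response gene, was called raised in SCR cells, from 15.2 ± 6.34 to 68.1 ± 20.2 CPM (log2 change 2.14, SE 0.38, adjusted p = 0.00895), but not without SCR AAI replicate 2 (adjusted p = 0.0512). HMOX1, which breaks down heme, was called lowered in siB cells, from 48.0 ± 5.86 to 18.9 ± 7.82 CPM (-1.39, SE 0.28, adjusted p = 0.00283), but not with all 4 groups in the fit (adjusted p = 0.0502). No other gene of the list was called, and its median was 0.33 in SCR cells and -0.22 in siB cells.

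**Figure D5:**
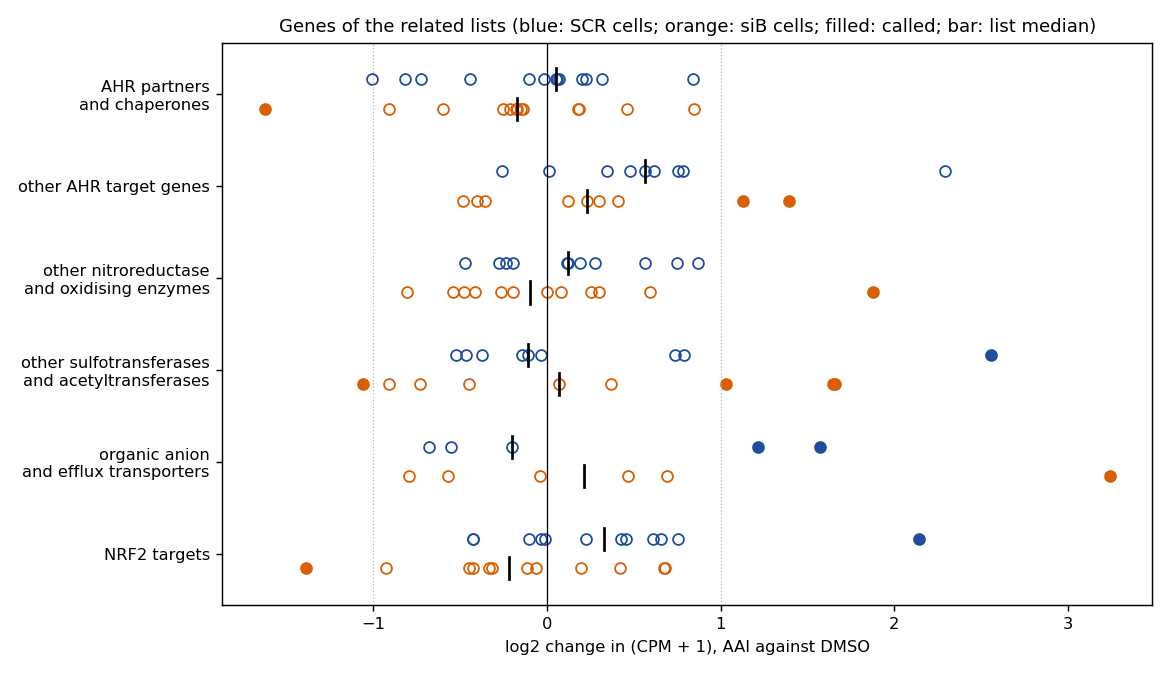
Log2 change in (CPM + 1) with AAI of each tested gene of the 6 related lists in SCR cells (blue) and siB cells (orange); filled points are called and black bars are list medians. The filled point farthest right is ABCC2 at 3.24 in siB cells, and the farthest left is EPAS1 at -1.62.

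Comparing siB with SCR cells under AAI asked whether knockdown of POLR2A changed these genes during injury. This comparison shares its AAI libraries with those above. AHRR was higher in siB AAI, with a ratio of mean CPM of 2.79 and a log2 difference of 1.47 (SE 0.22, adjusted p = 0.00323). It was 1 of 9 axis genes called, where 3.04% of 14946 genes were called higher and 0.629% lower. The call held in all 13 alternatives (1.22 to 1.66), with an adjusted p of at most 0.0230. Some markers were higher in siB AAI too: PECAM1 (1.23, adjusted p = 0.00661) and ANPEP (1.49, adjusted p = 0.00375) were called, the latter tested through the siB libraries, and PTPRC was at 0.82 (adjusted p = 0.0291, under 2-fold). The markers KRT19 (-0.91, adjusted p = 0.0182) and SLC34A1 (-0.77, adjusted p = 0.0388) were lower by the adjusted p, both under 2-fold. SLC34A1 was tested through the SCR libraries. The part of these markers in the AHRR difference was not tested. TIPARP was lower by the adjusted p but under 2-fold (-0.73, SE 0.21, adjusted p = 0.0441), and 3.79% of genes tested were lower by the adjusted p alone. Leaving out any library other than SCR AAI replicate 1 ended the significance of TIPARP, with adjusted p-values from 0.0628 to 0.180. The adjusted p was 0.0787 without a filter and 0.293 with all 4 groups in the fit. ARNT (-0.37, adjusted p = 0.204) and SULT1A1 (-0.43, adjusted p = 0.216) were lower without overlap, as were 15.8% of genes tested. AHR (-0.35), NQO1 (-0.38), CYP1B1 (-0.21), POR (0.35) and CYP1A1 (0.26) had adjusted p-values of 0.266 to 0.797 and overlapping libraries. Replicate numbers paired these libraries, and with a replicate block the adjusted p was 0.0348 for SULT1A1, 0.0371 for NQO1 and 0.0487 for POR, all under 2-fold. That fit gave every gene the spread of the trend across genes (29892 degrees of freedom from 6 libraries), so its p-values are too small. Of the related lists, ABCC2 was called higher (1.81, SE 0.19, adjusted p = 5.82e-04) and SULT1A4 lower (-1.24, SE 0.27, adjusted p = 0.0164). The SULT1A4 call was lost without a filter, without SCR AAI replicate 2 and without siB AAI replicate 3.

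Without AAI, the knockdown gave no called gene on the axis. None of the 8 tested was called, where 0% of 13606 genes were called higher and 0% lower (limma; voom also called 0, and 1 axis gene and 644 of all genes had an unadjusted p under 0.05). This test also did not call POLR2A, the target of the knockdown, which was lower without overlap (-1.01, SE 0.13, adjusted p = 0.505) and under an adjusted p of 0.05 in 1 of 13 alternatives (0.0271 with all 4 groups in the fit, 0.99998 at the highest), so the lack of calls says little about the axis genes. The axis gene was POR, higher in siB DMSO than in SCR DMSO without overlap (0.76, SE 0.25, unadjusted p = 0.02001, adjusted p = 0.9998), as were 8.28% of genes tested. CYP1B1 differed by 0.98 (95% interval -0.18 to 2.14) and AHRR by 0.34 (interval -0.15 to 0.83). The intervals of AHR (-1.06 to 1.11) and TIPARP (-1.18 to 0.99) were wide.

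The interaction term asked whether the AAI change differed between siB and SCR cells. No axis gene had an adjusted p under 0.05, where 1.61% of 15325 genes did (limma; 1 axis gene at an unadjusted p under 0.05, and voom called 0 of all genes). That gene was AHRR, whose rise was larger in siB cells by 1.13 (SE 0.33, unadjusted p = 0.00528, adjusted p = 0.134; 0.0752 to 0.546 over 18 alternatives). CYP1B1 (-1.19, SE 0.75, adjusted p = 0.574), TIPARP (-0.64), NQO1 (-0.58), SULT1A1 (-0.44), POR (-0.40), AHR (-0.37), ARNT (-0.13) and CYP1A1 (-0.02) had negative terms, none past the threshold. The median term of all genes tested was -0.06. Of the related lists, ABCC2 (1.67, SE 0.27, adjusted p = 0.0115) had a larger rise in siB cells, as did the markers PECAM1 (1.30, adjusted p = 0.0314) and ANPEP (1.62, adjusted p = 0.0110). Voom gave ABCC2 an adjusted p of 0.241.

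The genes whose pattern over the 12 libraries was most like each axis gene were ranked by Pearson's r of log2(CPM + 1) among 11581 genes, as a description of libraries that share conditions and depth. AHRR was nearest to IRAK2 (r = 0.99), NUP210L (0.99) and CTD-3088G3.8 (0.99). AHR was nearest to SLFN13 (0.98) and CEP97, TIPARP to AP3M1 (0.98), RBMXL1 and SCAF8, and ARNT to PLK2 (0.97), SNAI2 and GOLPH3L. NQO1 was nearest to MGLL (0.95), HMOX1 (0.93) and RPP40 (0.92), and CYP1B1 to CLCN5 (0.93), MNAT1 and FAM210A. POR was nearest to KLHL21 (0.98), MAP2K3 and OAF, and SULT1A1 to JUP (0.97), SLC1A4 and AP4M1. CYP1A1, at a mean of 0.816 CPM, was not ranked. No axis gene was among the 3 nearest genes of another.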

How the data were processed

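RNA from the 12 HK-2 samples was polyA-selected and sequenced as bulk libraries. As the methods state, the authors mapped read pairs to hg38, obtained gene-level counts from a UCSC annotation, and compared groups with limma on the BioJupies platform. Aligner and strand setting are not given in the sources used here. The authors deposited log10 values, log10(CPM + 1), with no further scaling between libraries. All values of each library came out as whole reads within 0.1, so CPM and reads were recovered, with 15844015 to 42805294 reads per library. A count of 0 allows 3 reads, 0.0701 to 0.189 CPM, which covers counting error only.

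The 9 genes and all lists were chosen with earlier results of these data known. A few genes of the lists and of the nearest genes are not reported here, and were left out of list counts and medians. Named were the 9 genes, POLR2A, at most 3 called genes per list and comparison with the largest changes, and the 3 nearest genes by r. CYP1A2, SULT2B1 and the markers were named after their values were seen. Limma 3.58.1 in R 4.3.3 (lmFit, eBayes with trend) was fitted to log2(CPM + 1) for each pair of groups, and over all 4 groups for the interaction, with Benjamini-Hochberg adjustment over all genes tested. It was tested on simulated counts with the same dispersion for every gene and no replicate effects. That simulation does not cover the spread of these libraries. The main test was on the log scale because the deposited values are log10, and voom on the recovered reads was an alternative.

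Same-numbered libraries were checked by correlating deviations from group means over 14465 genes. The correlation was 0.35 to 0.49 between SCR DMSO and SCR AAI and 0.30 to 0.64 between SCR AAI and siB AAI, so numbers paired these. With every value asked to be over 0.1, the other comparisons share only a number (lowest 0.025 between siB groups and -0.20 between DMSO groups). Alternatives were a pseudocount of 0.1, no filter, median-ratio size factors, CPM without AC010970.2, voom on recovered reads, a replicate block, all 4 groups in the fit, no fold limit and each library left out. For POLR2A, PDCD6 and genes of the lists they were added after seeing the data. AC010970.2 took from 0.189% of the reads of a library (SCR DMSO replicate 1) to 10.6% (SCR AAI replicate 2). Its share was uneven within groups, for example 0.667%, 10.6% and 1.59% in SCR AAI. Genes were placed by GENCODE 44 on hg38, and sequences were read from hg38.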

Additional observations from a re-analysis of the deposited data

How the results depend on the processing

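The number of called axis genes was 1 in SCR cells, 1 in siB cells and 1 for siB against SCR cells in AAI under every alternative, with these exceptions. Leaving out libraries gave 1 to 2 in SCR cells, the 2 without SCR DMSO replicate 2. Without a fold limit there were 5 in siB cells and 2 for siB against SCR cells in AAI. The count stayed 0 for the knockdown in DMSO and the interaction. The replicate block changed none of these counts. It left AHRR at 1.13 in the interaction (adjusted p = 0.107), and gave NQO1 in siB cells, where numbers did not pair, an adjusted p of 0.00719. Over the 9 genes, 36 of 591 single values changed sign, all of them uncalled. With median-ratio size factors these were NQO1 in SCR cells (-0.17), AHR in siB cells (-0.0128), and AHR (-0.0532) and SULT1A1 (-0.0746) in DMSO, where PDCD6 (-0.0362) changed sign too. With voom they were TIPARP in SCR cells (0.0057) and SULT1A1 in DMSO (-0.0064). Leaving out libraries gave ranges across 0 in SCR cells for AHR (-0.0310 to 0.891), TIPARP (-0.606 to 0.239) and NQO1 (-0.324 to 0.285), and in siB cells for AHR (-0.0465 to 0.244). In AAI they were CYP1A1 (-0.139 to 0.728) and CYP1B1 (-0.676 to 0.243), in DMSO AHR (-0.477 to 0.445), TIPARP (-0.640 to 0.205), NQO1 (-0.153 to 0.456) and SULT1A1 (-0.0672 to 0.105), and in the interaction AHR (-0.793 to 0.130), ARNT (-0.330 to 0.0467) and CYP1A1 (-0.413 to 0.453). The cause was not tested. Counts over all genes moved more: the interaction had 247 genes, against 46 with a pseudocount of 0.1, 625 without a filter, 389 with the block, 0 with voom and 81 to 1010 with a library left out. Calls in SCR cells were 1489, against 875 to 1984 with a library left out, those for siB against SCR cells in AAI 548, against 188 to 761 and 1387 without a fold limit, and those in siB cells 2944, against 7794 without one. CYP1A1 had at most 52 reads in a library.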
